A study of Ascaris suum with 62 samples.

Results

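The CENP-A peak lists of Ascaris suum embryos incubated for 5 days (5day), embryos incubated for 7 days (7day) and L1 larvae, the first larval stage, were compared with each other. They were chosen by stage, and they rest on 6 of the 62 samples of the series, 2 CENP-A chromatin immunoprecipitation (ChIP) sequencing libraries for each of the 3 stages. Ascaris suum is a parasitic roundworm of the pig. Fertilized eggs were taken from the uteri of females and kept shaking at 30 °C for the stated time, with no treatment. No genotype or strain is given, the incubation of the L1 sample is not given, and the 3 stages all carry the tissue label embryo. Of the libraries of each stage 1 is labelled single-end and the other paired-end, and the peak tables do not say which column is which. Each sample is a pool of whole animals. A lower value can therefore come from fewer cells that carry a sequence or from less CENP-A on it in each cell, and these cannot be told apart.

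CENP-A is the histone H3 variant that replaces H3 in the nucleosomes of centromeres and marks where kinetochores form. Ascaris chromosomes are holocentric, which means that CENP-A and kinetochores are spread along the chromosome and not held at a single site. In early embryos of Ascaris the cells that form the body discard part of the genome when their chromosomes break, a process called programmed DNA elimination, while cells of the germline keep all of it. The deposited tables mark every peak as retained or eliminated.

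Each stage has 1 list of peaks, shared by its 2 libraries, with a whole-number count of reads for each peak and library. The 5day list held 10075 peaks over 48.8 Mb, the 7day list 11746 peaks over 44.8 Mb and the L1 list 11046 peaks over 45.3 Mb. Peaks had a median width of 2928 bp (5day), 2318 bp (7day) and 2538 bp (L1). Reads in peaks numbered 4639013 and 14901685 in the 5day libraries, 4291861 and 1005578 in the 7day libraries, and 1338625 and 4310509 in the L1 libraries. Below, density means reads per kb of peak scaled to a library total of 1000000 reads in peaks. It is described only for peaks of at least 200 bp unless stated otherwise. The lists also held 121, 276 and 218 shorter peaks, some of 1 to 3 bp, in which a few reads give a very high density. Median densities were 14.8 for 5day, 15.6 for 7day and 15.4 for L1. Set against each other over all peaks, the 2 libraries of a stage gave a chi-square of 8.08 per degree of freedom for 5day, 1.09 for 7day and 1.20 for L1, so those of 7day and L1 differed by little more than counting noise. Separate collections of eggs are not recorded for them, so the p-values measure only the spread between these libraries, which may be technical.

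Most of the CENP-A landscape was shared by the 3 stages. Peaks of the 3 lists covered 60.7 Mb in union, and 32.5 Mb of it, or 53.4%, lay in peaks of all 3 lists. This was 66.6% of the 5day length, 72.4% of the 7day length and 71.7% of the L1 length. L1 and 7day shared 35.8 Mb, which was 79.0% of the L1 and 79.8% of the 7day length. L1 and 5day shared 37.0 Mb, 81.7% of the L1 and 75.8% of the 5day length. The 7day and 5day lists shared 37.8 Mb, 84.4% of the 7day and 77.6% of the 5day length. Bases found in 1 list only came to 6.43 Mb at 5day, 3.69 Mb at 7day and 4.98 Mb in L1. Of these bases 58.2%, 50.3% and 42.2%, in the same order, lay inside regions that held a peak of all 3 stages, so they were edges of shared peaks or stretches between the pieces of a split peak. There are no replicate peak lists, so these overlaps have no error of their own.

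Overlapping peaks (by at least 1 bp) were merged into 12242 regions. Of these 6196, or 50.6%, held at least 1 peak of every list and are called core regions below. They lay on 356 scaffolds and had a median length of 6199 bp. Core regions took in 74.6% of 5day peaks, 76.4% of 7day peaks and 73.6% of L1 peaks. Those peaks held 91.0% of the 5day length, 91.9% of the 7day length and 90.1% of the L1 length, and between 92.4% and 94.0% of the reads of each library. In 157 core regions the 3 lists overlapped only in a chain, with no base in all 3.

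**Figure D1:**
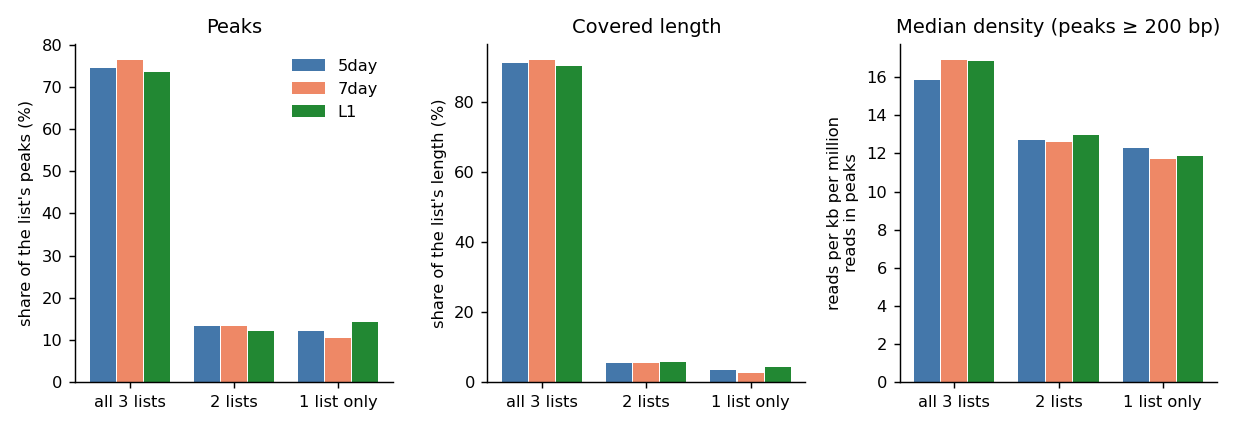
Share of each list's peaks, share of its covered length and median density (scaled reads per kb, peaks of at least 200 bp) for peaks in merged regions with a peak of all 3 lists, of 2 lists or of 1 list only, in 5day, 7day and L1. Bars are values of 1 list each, so they carry no error bars; at each stage covered length and density are highest in regions of all 3 lists and lowest in those of 1 list only.

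Peaks of 1 list only were few, short and sparse in reads. They numbered 1222 at 5day (12.1% of the list), 1213 at 7day (10.3%) and 1573 in L1 (14.2%), and held 3.53%, 2.61% and 4.28% of the length. Their median width was 1234 bp at 5day, against 4060 bp for 5day peaks in core regions. At 7day it was 978 bp against 3104 bp, and in L1 1128 bp against 3451 bp. Their median density was 12.3 at 5day against 15.8 in core peaks, 11.7 at 7day against 16.9, and 11.9 in L1 against 16.9. Many lay near a core region: the median distance to the nearest one was 4804 bp at 5day, 3915 bp at 7day and 7140 bp in L1. More than 20 kb away were 241 at 5day, 206 at 7day and 417 in L1, and a further 111, 18 and 112 lay on scaffolds with no core region.

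Whether a peak was found at all 3 stages went with its width and its density. Among the widest quartile of peaks 99.1% at 5day, 99.5% at 7day and 98.6% in L1 lay in core regions, and 0.121%, 0.0697% and 0.259% were in 1 list only. Among the narrowest quartile 45.5%, 49.0% and 43.9% lay in core regions, and 31.3%, 27.9% and 35.5% were in 1 list only. By density, 93.5%, 95.6% and 94.5% of the densest quartile lay in core regions, against 54.2%, 51.3% and 48.4% of the sparsest. A wide peak has more bases with which to overlap another, and the part of this in the relation with width was not tested.

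**Figure D2:**
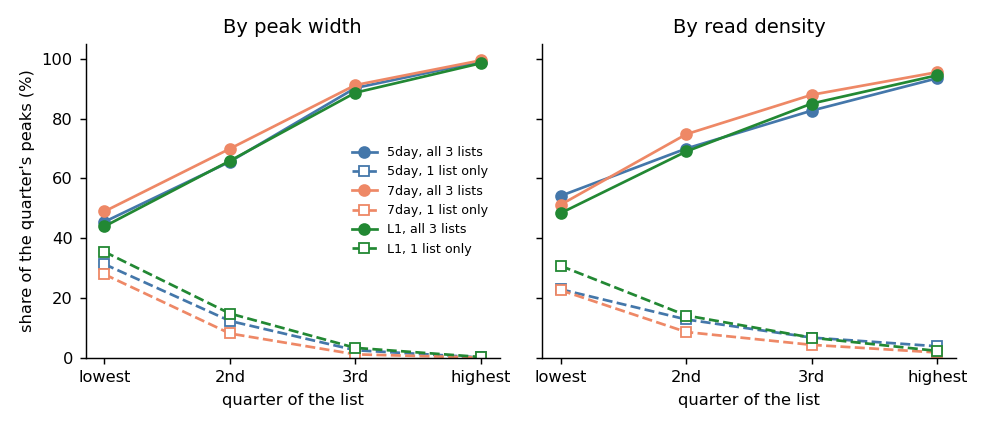
Share of peaks (y axis, percent) that lie in core regions of all 3 lists (filled points, solid lines) or in 1 list only (open points, dashed lines), by quartile of peak width (left) and of density (right), for 5day, 7day and L1, peaks of at least 200 bp. In the widest quartile the 3 stages meet at 98.6% to 99.5% in core regions, and in the narrowest they lie between 43.9% and 49.0%.

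The regions with the longest shared cover held 1 to 9 peaks in each list, and none of the 5 named was a single peak at all 3 stages. The region with the longest length covered in all 3 lists was scaffold 4 from 5328106 to 5374708, with 41.6 kb in all 3; it was 1 peak at 5day, 3 at 7day and 2 in L1. Its density was 34.8 and 31.2 in the 5day libraries, 42.0 and 40.0 in the 7day libraries and 44.9 and 43.9 in the L1 libraries. The libraries of the 3 stages did not overlap there, and the share of all core regions without overlap is not given here. The next 4 by the same measure were scaffold 9 from 2107919 (40.2 kb in all 3), scaffold 11 from 1153462 (39.3 kb), scaffold 71 from 975555 (38.8 kb) and scaffold 70 from 658986 (38.6 kb). The length in all 3 lists was 67.5% of the region on scaffold 71, which held 7 peaks at 5day, 9 at 7day and 4 in L1, and 86.9% to 94.6% in the other 4. On scaffold 70 the density was 31.2 and 35.04 at 5day, 33.6 and 32.5 at 7day and 31.3 and 31.6 in L1, with overlap between the stages. Coordinates are those of the peak tables, on the assembly AgBionano_v1.9 that their scaffold names give; the tables name no genes, and no annotation of this assembly was used here.

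Peaks were wider at 5day and more often split at 7day. In the 3357 core regions with exactly 1 peak of each list, the median width was 3567 bp at 5day, 3209 bp at 7day and 3080 bp in L1. The median ratio of widths was 0.977 for L1 over 7day, 0.923 for L1 over 5day and 0.954 for 7day over 5day, and L1 peaks were narrower than the matching 5day peak in 62.2% of these regions. Core regions that held more than 1 peak of a list numbered 1063 for 5day, 2016 for 7day and 1513 for L1. The region was split at that stage alone in 254 cases at 5day, 766 at 7day and 424 in L1. Peaks of at least 10 kb held 40.9% of the 5day length, 31.9% of the 7day length and 33.8% of the L1 length. The 5day list also rests on the most reads, and the part of depth in these widths was not tested.

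Within core regions density was higher in wider peaks from 1 kb upward in each list. Core peaks of 200 bp to 1 kb had a median density of 14.2 for 5day, 15.7 for 7day and 15.5 for L1, above those of the next class. In core peaks of 1 to 2 kb it was 13.3 for 5day, 14.5 for 7day and 14.3 for L1, and those of at least 10 kb had 22.8, 26.1 and 24.7. Across 6164 core regions with at least 200 bp of peak in each list, Pearson's r of log2 density between the 2 libraries of a stage was 0.911 for 5day, 0.915 for 7day and 0.922 for L1. Between libraries of different stages it was 0.781 to 0.845 for L1 with 7day, 0.748 to 0.795 for L1 with 5day and 0.781 to 0.859 for 7day with 5day. These are descriptions across regions, which are not independent, and every pair shares the effect of region width. The 2 libraries of a stage are counted over the same peaks, and those of different stages over peaks that differ in part. The part of this in the higher r within a stage was not tested.

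The density of each core region was then compared between stages with edgeR's quasi-likelihood test, fitted to the 6 libraries with the library's reads in peaks and the covered length as offset, and with Benjamini-Hochberg adjustment over the 6196 regions. At an adjusted p under 0.05, 762 regions differed between L1 and 7day (12.3% of those tested), 290 higher and 472 lower in L1. Between L1 and 5day 1727 differed (27.9%), 1190 higher and 537 lower in L1. Between 7day and 5day 917 differed (14.8%), 746 higher and 171 lower at 7day. For L1 against the mean of 5day and 7day, 1287 differed (20.8%), 761 higher and 526 lower in L1. The splits depended on the scaling: with trimmed mean (TMM) scaling the calls for L1 against 5day were 752 higher and 777 lower, those for 7day against 5day 370 higher and 327 lower, and those for L1 against the mean of both embryo stages 591 higher and 648 lower. The counts also rested on single libraries. That for L1 against 7day was 37 without the second L1 library and 1917 without the second 5day library. That for L1 against 5day was 418 without the second L1 and 2861 without the first 5day library. That for 7day against 5day was 144 without the first 7day and 2610 without the first 5day library, and that for L1 against both embryo stages was 139 without the second L1 and 2411 without the second 5day library.

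Most of these differences were small. Of the 6196 core regions 94.6% lay within 1.5-fold for L1 against 7day, 92.6% for L1 against 5day and 96.1% for 7day against 5day. At least 2-fold and called were 31 regions for L1 against 7day (0.500% of those tested), 51 for L1 against 5day (0.823%), 33 for 7day against 5day (0.533%) and 29 for L1 against the mean of both embryo stages (0.468%). Of those 29, 12 had under 200 bp of peak in at least 1 list, and in 7 each list covered at least 0.5 of the region. The called, 2-fold differences fell to 3, 8, 2 and 5, in the same order of comparisons, in the 2153 core regions whose covered lengths were within 25% (longest over shortest), a subset chosen after the values were seen.

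**Figure D3:**
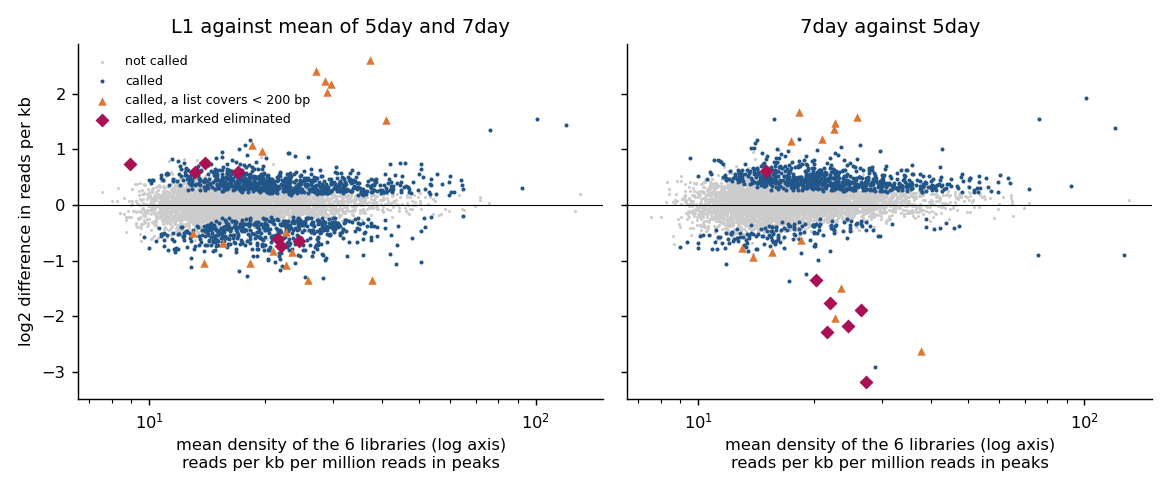
Log2 difference in density of each core region (y axis) against its mean density over the 6 libraries (x axis, log scale, scaled reads per kb), for L1 against the mean of 5day and 7day (left) and 7day against 5day (right). Grey points were not called at an adjusted p under 0.05; triangles are called regions in which a list covers under 200 bp, and diamonds are called regions marked eliminated, 6 of which lie at least 2-fold lower at 7day than at 5day.

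The largest rises in L1 over both embryo stages were regions in which the L1 peaks were very short. They lay on scaffold 24 from 610198, scaffold 60 from 996565, scaffold 290 from 103945, scaffold 15 from 2495106 and scaffold 37 from 493222, with log2 differences from 2.03 to 2.60. The L1 peaks there covered 32 to 54 bp in all, against 1234 to 5478 bp at 5day and 923 to 3530 bp at 7day. Without the offset for covered length all 5 differences had the opposite sign, so they are not read as gains of CENP-A. Among the 4539 core regions in which each list covered at least 0.5 of the region, the set used instead after these values were seen, the largest rise was on scaffold 39 from 778265 to 780070. Its density was 27.7 and 30.5 at 5day, 117 and 103 at 7day and 149 and 180 in L1, so it was low at 5day and high at the later stages. A lack of overlap between the libraries compared was a condition for naming a region. The fit gave a log2 difference of 1.54 (SE 0.0936, adjusted p = 6.42e-09, edgeR) for L1 against both embryo stages and 1.93 (SE 0.117, adjusted p = 6.51e-09, edgeR) for 7day against 5day. The next was scaffold 183 from 225429 to 228845, with 45.7 and 45.2 at 5day, 114 and 125 at 7day and 158 and 233 in L1. Its log2 difference was 1.44 for L1 against both embryo stages (SE 0.103, adjusted p = 5.52e-08, edgeR) and 1.38 for 7day against 5day (SE 0.129, adjusted p = 2.91e-06, edgeR). Further rises in L1 in this set were under 2-fold, on scaffold 40 from 1119260, scaffold 74 from 863238 and scaffold 361 from 26253, with log2 differences from 0.84 to 0.94.

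Of the 5 largest falls in L1 relative to both embryo stages, 3 lay in regions well covered at every stage. On scaffold 159 from 363198 to 367081 the density was 29.6 and 28.3 at 5day, 34.8 and 33.6 at 7day and 12.4 and 13.0 in L1 (log2 difference -1.30, SE 0.116, adjusted p = 6.92e-07, edgeR). Covered lengths were alike, at 3865, 3851 and 3429 bp. On scaffold 124 from 288014 to 293060 it was 42.1 and 31.6 at 5day, 33.8 and 33.8 at 7day and 13.9 and 14.1 in L1 (log2 difference -1.32, SE 0.137, adjusted p = 4.86e-06, edgeR). On scaffold 5 from 493664 to 499391 it was 21.4 and 22.7 at 5day, 21.0 and 25.3 at 7day and 7.17 and 10.2 in L1 (log2 difference -1.27, SE 0.136, adjusted p = 6.29e-06, edgeR). In these 3 regions the embryo stages were closer to each other than either was to L1, though on scaffold 159 both 7day libraries lay above both 5day libraries. That both L1 libraries lay below all 4 embryo libraries was a condition for naming a region and is not a finding. Of the other 2 falls named by the same rule, that on scaffold 12 from 950645 covered 1773 bp in L1 and 4945 bp at 5day, and that on scaffold 37 from 592724 rested on 71 bp of 7day peak and had the opposite sign without the length offset. A region of 9675 bp in L1 on scaffold 37, from 1408044 to 1419080, had 49.8 and 56.9 at 5day, 53.7 and 49.3 at 7day and 25.9 and 25.1 in L1 (log2 difference -1.05, SE 0.0813, adjusted p = 1.34e-07, edgeR, in the same set of regions).

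Of the 5 largest falls at 7day relative to 5day, 3 were in DNA marked eliminated. Of all 14 called falls of at least 2-fold 6 were, and of all 171 called falls 6. Of the 6196 core regions tested, 18 were marked eliminated. On scaffold 132 from 248609 to 253201, marked eliminated, the density was 5.69 and 10.6 at 7day and 44.8 and 76.0 at 5day (log2 difference -3.19, SE 0.336, adjusted p = 2.55e-05, edgeR). On scaffold 129 from 267922 it was 8.70 and 9.40 at 7day and 31.7 and 54.2 at 5day (log2 difference -2.29), and on scaffold 174 from 107770 it was 10.999 and 10.2 at 7day and 36.1 and 60.5 at 5day (log2 difference -2.17); both are marked eliminated. Scaffold 387 from 23621 to 31132, marked retained, had 8.21 and 10.2 at 7day and 50.7 and 78.5 at 5day (log2 difference -2.90, SE 0.201, adjusted p = 2.16e-08, edgeR), and 12.1 and 12.4 in L1. As in the eliminated regions, the second 5day library lay well above the first there. The fall on scaffold 96 from 246219 rested on 33 bp of 5day peak and had the opposite sign without the length offset. Of the 5 named rises at 7day, those on scaffold 39 from 758169, scaffold 37 from 592724 and scaffold 102 from 457014 rested on 84, 71 and 412 bp of 7day peak, and each had the opposite sign without the length offset. The remaining 2 were scaffold 39 from 778265, given above, and scaffold 183 from 217447, with 77.8 and 85.8 at 7day and 29.3 and 26.7 at 5day.

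Peaks marked eliminated were a small share of the peaks, covered length and reads at these stages, and the share was largest at 5day. How much of the assembly is eliminated DNA is not given here, so these shares do not measure CENP-A per length of that DNA. Peaks marked eliminated numbered 102 at 5day, 33 at 7day and 38 in L1, and covered 309 kb, 70.3 kb and 112 kb, which was 0.633%, 0.157% and 0.247% of the length of each list. They took 0.859% and 1.48% of the reads in peaks in the 5day libraries, 0.177% and 0.182% in the 7day libraries and 0.310% and 0.308% in the L1 libraries. The exact (Clopper-Pearson) 95% intervals, which cover counting error only, were 0.850% to 0.867% and 1.47% to 1.49% for the 5day libraries, 0.173% to 0.181% and 0.174% to 0.191% for the 7day libraries, and 0.300% to 0.319% and 0.303% to 0.313% for the L1 libraries. Both L1 libraries thus lay above both 7day libraries and below both 5day libraries. The mean was 0.309% in L1 against 0.674% over the 4 embryo libraries, a difference of -0.366 percentage points (two-sided exact permutation p = 0.733), and the 15 ways to split 2 from 4 libraries allow no two-sided p under 0.0667. Without the second 5day library this difference was -0.0971 points.

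The 2 libraries of 5day differed in eliminated DNA. The ratio of density in the second to that in the first had a median of 1.66 over the 102 eliminated 5day peaks, against 0.970 over retained 5day peaks, of which 90% lay between 0.719 and 1.25. In 84 of the 102 the ratio was above that range. At 7day the median ratio was 1.09 in eliminated and 1.02 in retained peaks, and in L1 it was 1.02 and 0.970. The eliminated reads of 5day therefore depend on the library, and the 5day list was called once for both.

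Eliminated peaks of 5day were seldom found later. Of the 102, 71 (69.6%) were in the 5day list only, against 11.5% of retained 5day peaks. At 7day 2 of 33 eliminated peaks (6.06%) were in that list only, against 10.3% of retained peaks, and in L1 6 of 38 (15.8%), against 14.2%. Core regions marked eliminated numbered 18. For 7day against 5day 7 of them were called (38.9%, against 14.7% of retained core regions), 6 lower and 1 higher at 7day. For L1 against 5day 12 were called (66.7%, against 27.8% of retained), 7 lower and 5 higher in L1. For L1 against 7day 3 were called, all higher in L1, and that share of 16.7% was near the 12.3% of retained regions.

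Eliminated peaks formed 23 runs on 22 scaffolds, a run being the eliminated peaks of a scaffold with no retained peak between them. Of the runs 11 held peaks of all 3 lists, 8 of 5day only, 2 of 5day and 7day, and 2 of 5day and L1. In 19 runs the 5day list covered more than either later list. The 5 with the most cover in any list were the same as the 5 with the widest difference between lists. Scaffold 174 from 96013 to 165737 had 44.7 kb at 5day, 13.3 kb at 7day and 27.4 kb in L1. Scaffold 158 from 132330 to 373520 had 43.9 kb at 5day, none at 7day and 7.39 kb in L1. Scaffold 129 had 35.9 kb, 14.1 kb and 24.0 kb, scaffold 35 from 414883 to 1290941 had 33.4 kb, 5.01 kb and 7.14 kb, and scaffold 163 had 31.5 kb, none and 6.66 kb, in the same order of stages. In these 5 runs cover was lowest at 7day and the L1 value lay between the others. Over all runs L1 covered more than 7day in 9 and less in 6.

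**Figure D4:**
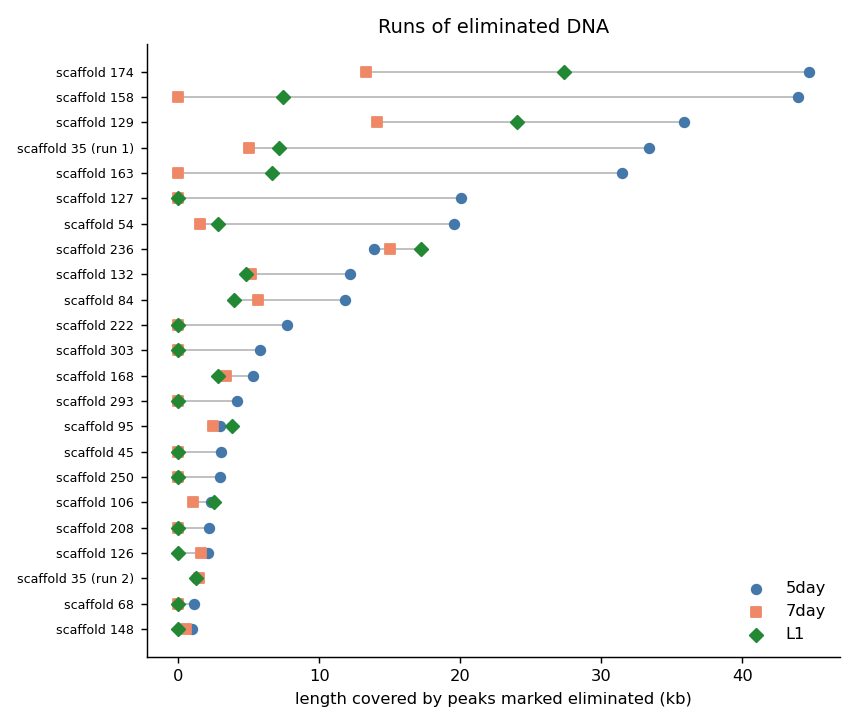
Length covered by peaks marked eliminated (x axis, kb) in each of 23 runs, in rows ordered by the highest value, for 5day (circles), 7day (squares) and L1 (diamonds). A point is 1 peak list, with no error bar; the upper rows run from 44.7 kb at 5day down to 0 at 7day, while scaffold 236 has 13.9, 15.0 and 17.2 kb in the 3 stages.

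Density differed among the eliminated runs, and a run's peaks need not lie in the same place at each stage. On scaffold 129 it was 27.8 and 44.1 at 5day, 14.6 and 14.0 at 7day and 15.8 and 16.8 in L1, close to the retained medians of 15.3 and 16.1 at 7day and 16.0 and 15.0 in L1. Scaffold 236 differed little between stages, with 14.2 and 13.4 at 5day, 15.9 and 16.2 at 7day and 14.7 and 15.0 in L1. On scaffold 84 the run as a whole had 18.2 and 29.9 at 5day over 11.8 kb, 103 and 106 at 7day over 5.66 kb and 236 and 219 in L1 over 3.98 kb. Most of its 7day and L1 reads lay in a peak from 59648 that no 5day peak overlapped, with 2268 of the 2513 reads of the run in the first 7day library and 1217 of 1255 in the first L1 library, so these values do not compare the same DNA. The first run of scaffold 35 had 41.2 and 85.6 at 5day, 77.4 and 79.3 at 7day and 85.7 and 87.4 in L1. There too most 7day and L1 reads lay in a peak, from 438254 at 7day, that no 5day peak overlapped, with 1575 of 1663 reads in the first 7day library and 707 of 819 in the first L1 library.

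By scaffold, cover followed the same pattern at the 3 stages. Cover is the percent of a scaffold, measured to the end of its last peak, that lies inside peaks. All scaffold lengths given here are measured in that way. Over 272 scaffolds of at least 100 kb Pearson's r of cover was 0.889 between L1 and 7day, 0.862 between L1 and 5day and 0.898 between 7day and 5day, as descriptions across scaffolds. Of 486 scaffolds with a peak, 359 had peaks of all 3 lists, and these held 9863 of the 5day peaks, 11708 of the 7day peaks and 10845 of the L1 peaks. Peaks of 5day and L1 but none of 7day were found on 41 scaffolds, with 339 kb in L1 and 343 kb at 5day. Peaks of 5day and 7day only were found on 9, and of 7day and L1 only on 4. Scaffold 247, marked retained, had 12 peaks and 25.4% cover at 5day, no peak at 7day, and 12 peaks and 30.4% cover in L1. Scaffold 322 had 14.3% at 5day, none at 7day and 14.0% in L1. On both scaffolds 5day and L1 were close and the 7day list had no peak.

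Scaffolds with peaks in 1 list only numbered 41 for 5day, 6 for 7day and 26 for L1. Measured to the end of the last peak, 28, 5 and 19 of these were under 50 kb. Such lengths are lower bounds, and a scaffold with few peaks can look short by this measure. At 5day the 13 longer ones were scaffolds 127, 187, 208, 222, 256, 320, 250, 303, 347, 268, 295, 297 and 409, with cover from 1.08% to 14.5%; 127, 208, 222, 250 and 303 are marked eliminated. At 7day the only one was scaffold 275, with 4.67%. In L1 the 7 were scaffolds 165, 333, 318, 379, 328, 287 and 411, with cover from 3.05% to 20.2%, all marked retained.

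Reads in peaks per scaffold were tested with edgeR over 485 scaffolds. These tests, like those of windows below, move with how much was called as peak at each stage. For L1 against the mean of both embryo stages 324 were called (66.8%), 226 higher and 98 lower in L1; with TMM scaling the split was 186 and 128. For L1 against 7day 289 were called (59.6%), for L1 against 5day 349 (72.0%) and for 7day against 5day 265 (54.6%). Reads of scaffolds and windows are given scaled to 1000000 reads in peaks. The 5 largest rises in L1 were scaffolds 432, 318, 424, 165 and 508, with 99.99 to 265 reads in the L1 libraries and no peak at 5day or 7day. The 5 largest falls were scaffolds 126, 164, 532, 732 and 627, with no L1 peak and 30.5 to 93.5 reads in the 7day libraries and 54.4 to 160 in the 5day libraries. For 7day against 5day the largest falls were scaffolds 158, 163, 127, 247 and 293, with no 7day peak, all but 247 marked eliminated. The largest rises at 7day were scaffolds 500, 368, 275, 457 and 350, with no 5day peak. No fold is given for these, since the list of a group holds no peak there and so counts no reads. Their calls follow from the peak lists and are not separate evidence of a difference in reads. The counts of called scaffolds include such scaffolds, since only 359 of the 486 with a peak had peaks of all 3 lists.

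In windows of 20 kb cover agreed broadly between stages. The last window of a scaffold was cut at its last peak, so it could be shorter than 20 kb, which raises its cover. Over 7659 windows of at least 5 kb Pearson's r of cover was 0.897 between L1 and 7day, 0.867 between L1 and 5day and 0.918 between 7day and 5day. Cover of L1 and 7day was within 10 percentage points in 70.6% of windows, that of L1 and 5day in 62.5%, and that of 7day and 5day in 72.7%. A difference of more than 25 points was found in 4.33%, 7.59% and 3.71% of windows, in the same order. Of 4568 windows with at least 25% cover at any stage, 3063 had it at all 3. Windows with at least 25% at 5day and no peak at 7day or in L1 numbered 29. There were 3 such windows for 7day, and 29 for L1. These sets include cut windows, in which a short length of peak can reach 25%. Examples are scaffold 607, with 79.4% of 7.754 kb at 5day, and scaffold 115 from 580001, with 80.2% of 5.364 kb in L1. In 29 windows 5day and L1 had at least 25% and 7day no peak, in 16 both embryo stages had it and L1 no peak, and in 7 both later stages had it and 5day no peak.

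With edgeR over 7596 windows, 4764 were called for L1 against 7day (62.7%), 5562 for L1 against 5day (73.2%), 4485 for 7day against 5day (59.0%) and 5170 for L1 against the mean of both embryo stages (68.1%). The largest rises in L1 were windows on scaffolds 432, 82, 111, 318 and 508, with no 5day or 7day peak, of which the window of scaffold 82 from 960001 had 176 and 166 reads in L1. The largest falls were windows on scaffolds 49, 47, 37, 48 and 11, with no L1 peak. That on scaffold 48 from 1240001 had 112 and 125 reads at 7day over 8392 bp of peak, and 128 and 99.05 at 5day over 8265 bp. That on scaffold 37 from 1420001 had 69.2 and 58.7 at 7day and 201 and 209 at 5day, and it borders the region from 1408044 in which L1 density fell. For 7day against 5day the largest falls were 3 windows of scaffold 158 and 1 each of scaffolds 35 and 293, all with no 7day peak and all in runs marked eliminated. The largest rises were 2 windows of scaffold 188 and 1 each of scaffolds 53, 9 and 394, all with no 5day peak. As for scaffolds, a window without a peak of a list counts no reads of it, so these calls follow from the peak lists.

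The start of scaffold 188 held the densest 7day and L1 peaks of at least 200 bp, and no 5day peak was called there. It was singled out after its values were seen. From 6809 to 52546 the 5day list had no peak, the 7day list 6 peaks over 16.9 kb and the L1 list 5 peaks over 11.3 kb, all marked retained. With no reads counted at 5day, these peaks took 1.17% and 1.12% of all reads in peaks in the 7day libraries and 1.15% and 1.29% in the L1 libraries. Their densities were 321 to 942 at 7day and 101 to 1546 in L1. Not all of these peaks stood above those elsewhere, such as that on scaffold 53 given below. On the rest of the scaffold the 3 stages were near each other, with 13.4 and 15.7 at 5day, 15.3 and 16.4 at 7day and 17.3 and 15.6 in L1.

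**Figure D5:**
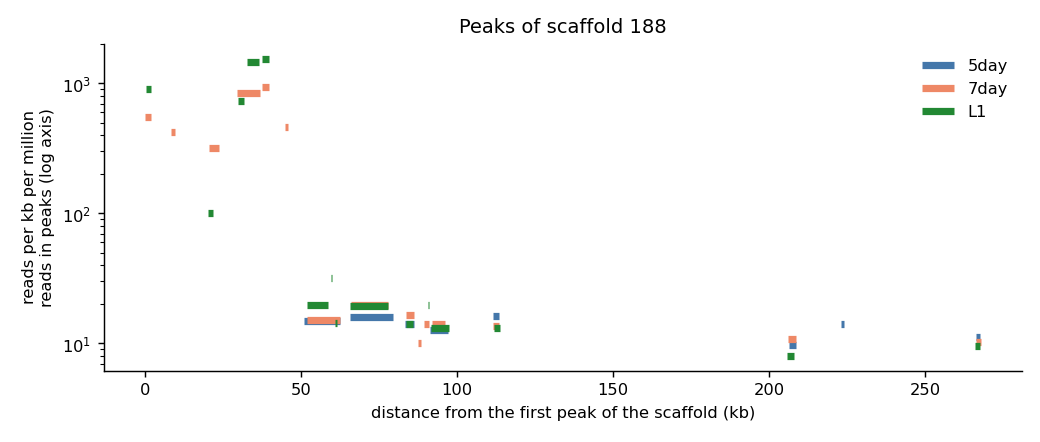
Density of each peak of scaffold 188 (y axis, log scale, scaled reads per kb) against distance from the first peak of the scaffold (x axis, kb). Each bar spans 1 peak of the 5day, 7day or L1 list and is the mean of 2 libraries; 7day and L1 peaks lie between 101 and 1546 over the first stretch, where 5day has no peak, and the 3 stages lie together further along.

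Peaks with a density of at least 100, a limit chosen after the values were seen, numbered 11 at 5day, 17 at 7day and 19 in L1. At 5day 8 of the 11 were marked eliminated, against 1.01% of all 5day peaks, and 8 had no 7day peak over them. At 7day 2 of the 17 were marked eliminated, against 0.281% of all 7day peaks, and 14 had no 5day peak over them. In L1 2 of the 19 were marked eliminated, against 0.344% of all L1 peaks, and 13 had no 5day peak over them. In each list the eliminated share was thus higher among the very dense peaks than among all peaks. Core regions held 3 of the 11, 3 of the 17 and 6 of the 19, against 74.6%, 76.4% and 73.6% of all peaks of the 5day, 7day and L1 lists. The dense peaks are not all separate places, since 6 of the 17 at 7day and 5 of the 19 in L1 lay at the start of scaffold 188. The 2 marked eliminated at 7day and the 2 in L1 also lay at the same places, on scaffolds 35 and 84. On scaffold 53 from 1625949 to 1627831 there was no 5day peak, the density of the 7day peak was 534 and 554, and that of the matching L1 peak was 731 and 939. On scaffold 9 from 3306990 to 3311330 there was again no 5day peak, with 119 and 129 at 7day and 142 and 175 in L1. Dense peaks of 7day alone lay on scaffold 58 from 1558045 (274 and 261), scaffold 516 from 12813 (223 and 229), scaffold 394 from 33557 (199 and 204) and at 2 places at the start of scaffold 188. Scaffold 29 from 2226095 was dense at the 3 stages, with 138 and 108 at 5day, 150 and 97.5 at 7day and 138 and 149 in L1, so its libraries overlapped. On scaffold 183 the peaks from 217447 to 247472 together had 33.2 and 32.3 at 5day, 53.9 and 58.4 at 7day and 77.1 and 91.8 in L1, each stage above the one before in both libraries. They covered 19.5, 22.8 and 22.9 kb. This stretch was not chosen by a fixed rule, and its peaks did not all go the same way. The 5day peak from 221889 had 18.3, with no 7day peak over it and 13.8 in L1. The 7day peak from 231875 had 36.2, against 32.6 at 5day and 57.3 in L1, the same order as the whole stretch.

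Among the peaks of 1 list only, the longest of 5day lay on scaffolds 35, 127 and 222, were 8092, 6857 and 6294 bp long and were all marked eliminated. Those of 7day lay on scaffolds 368, 79 and 275 and were 5460, 5256 and 4395 bp long, with densities of 9.84, 7.83 and 12.5. Those of L1 lay on scaffolds 318, 292 and 82 and were 8766, 6124 and 5970 bp long, with densities of 13.6, 15.2 and 13.4, all marked retained. The densest 5day peaks of at least 200 bp were all in the eliminated run of scaffold 35, with 126 and 342 in the 2 libraries from 1284753, 131 and 182 from 442797 and 51.9 and 216 from 1279427. Those of 7day were 2 at the start of scaffold 188, from 51506 and 15098, with 459 and 425, and that on scaffold 58, with 268. Those of L1 were less dense, with 97.9 on scaffold 107 from 428112, 72.9 on scaffold 82 from 963451 and 57.7 on scaffold 44 from 1177040. Without the limit of 200 bp, the densest of each list were 8 peaks of 1 to 3 bp and the 7day peak of scaffold 188 from 51506.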

How the data were processed

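CENP-A ChIP was sequenced in 2 libraries at each of 3 stages. The submitters' processing notes name Bowtie2 and MACS2; versions, settings and the use of input are not given in the sources used here. The deposited tables, 1 per stage, give scaffold, start, end, 2 columns of whole-number read counts per peak, not normalized, and the mark retained or eliminated, per the file headers; whether starts count from 0 or 1 is not stated. Widths were end minus start. Tables of other stages, inputs, CENP-C and histone marks were not used here.

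Peaks overlapping by at least 1 bp were merged with pandas 2.3.3 (Python 3.11.15). Reads of a peak were shared among 20 kb windows by length. edgeR 4.0.16 (R 4.3.3) fitted counts of the 6 libraries by stage (quasi-likelihood, robust), with features of at least 10 reads in 2 libraries, the total of reads in peaks as library size and, for core regions, covered length as offset. Standard errors are the log2 difference over the root of the F statistic. On simulated counts with core regions changed between L1 and 7day, 96 of 100 2-fold and 71 of 100 1.5-fold changes were called, and 9 of 5996 unchanged regions. These counts were drawn with the same spread for all libraries, whereas the 5day libraries differed from each other the most, so these rates need not hold for the data. Alternatives were TMM, DESeq2 1.42.0, no filter, no length offset, stricter overlap, 10 kb windows, a replicate block and each library left out; the subsets with at least 200 bp in each list and with covered lengths within 25% were added after the values were seen. Named regions are the 5 largest rises and falls past an adjusted p of 0.05 in which the libraries of the groups compared do not overlap (for windows and scaffolds too), the 5 core regions with the longest length covered in all 3 lists, the 3 longest and 3 densest 1-list peaks of each list, the 5 eliminated runs with most cover and 5 with the widest difference, and scaffolds of 1 list only, of which those under 50 kb are counted. Members, lists and rules were chosen with earlier results of these data known.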

Additional observations from a re-analysis of the deposited data

How the results depend on the processing

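The counts of called core regions depended on the processing, those of windows and scaffolds less. In the order L1 against 7day, L1 against 5day, 7day against 5day and L1 against the mean of both embryo stages, core regions called were 762, 1727, 917 and 1287 as reported, 467, 888, 263 and 744 with DESeq2, 3223, 3967, 2849 and 3760 without the offset for covered length, 401, 870, 435 and 663 with 1 peak of each list, and 365, 835, 400 and 656 with covered lengths within 25% (longest over shortest). The last 2 test fewer regions. Leaving out each library in turn gave 37 to 1917, 418 to 2861, 144 to 2610 and 139 to 2411, lowest without the second L1 library or, for 7day against 5day, without the first 7day library, and highest without a 5day library. The same ranges were 3375 to 5541, 4240 to 5889, 3038 to 5175 and 3750 to 5794 for windows, and 179 to 354, 265 to 358, 200 to 305 and 214 to 375 for scaffolds. Windows of 10 kb, of which there are more, gave 7295, 8644, 7035 and 7912 calls.

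Replicate numbers do not pair the libraries: same-numbered libraries deviated from their stage means with correlations of -0.0286, 0.0599 and -0.0638. With the replicate number as a block 733, 1865, 916 and 1303 core regions were called, in the same order, 4730, 5673, 4572 and 5218 windows, and 288, 355, 265 and 320 scaffolds.

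Without the length offset 10 named core differences had the opposite sign. For L1 against both embryo stages the log2 differences were then -2.69 on scaffold 24, -3.19 on scaffold 60, -3.93 on scaffold 290, -2.38 on scaffold 15, and -4.31 and 1.65 on scaffold 37 from 493222 and from 592724. For 7day against 5day they were -2.14 on scaffold 39 from 758169, -2.76 on scaffold 37, -0.20 on scaffold 102 and 3.28 on scaffold 96. Each of the 10 rests on a short peak in 1 list. The 60 named differences kept direction and call with TMM scaling and with the block, 55 did with DESeq2, and with each library left out in turn 307 values kept the call and 21 missed the threshold.

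Peaks of 1 list only made up 19.6%, 16.1% and 20.9% of the 5day, 7day and L1 lists when an overlap had to cover at least 0.5 of the peak. Among peaks above the median density of their list, those under 200 bp included, they made up 6.45%, 5.14% and 6.28%. In that denser part 53.8% of the union lay in all 3 lists, and 0.705%, 0.0769% and 0.113% of the length was marked eliminated. Without peaks under 200 bp, the share in 1 list only was 6.75%, 4.33% and 6.72% in the second densest quartile. In the densest it was 3.86%, 1.78% and 2.29%. The difference in eliminated read share ranged from -0.531 to -0.0971 points with 1 library left out. The smallest libraries, with 1005578 reads in peaks at 7day and 1338625 in L1, limit the precision of those stages. The cause of these changes was not tested.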

Other observations

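With all peaks counted, the share of reads in peaks on long scaffolds fell and that on mid-sized scaffolds rose in order of stage. Lengths run to the end of the last peak. The 86 scaffolds of at least 1 Mb took 80.9% and 80.7% of reads in peaks in the 5day libraries. They took 79.8% and 79.5% in the 7day libraries and 78.0% and 77.6% in the L1 libraries. The 186 scaffolds of 100 kb to 1 Mb took 16.0% and 16.3% at 5day, 17.3% and 17.5% at 7day and 18.8% and 19.0% in L1. The long scaffolds had a cover of 19.5% in the 5day list, 17.8% in the 7day list and 17.5% in the L1 list, and the mid-sized ones of 13.7%, 13.1% and 14.4%. The libraries of the 3 stages did not overlap in either read share, with all peaks counted. The mid-sized class includes scaffold 188, of 275 kb. Its start took 1.17% and 1.12% of reads in peaks at 7day, 1.15% and 1.29% in L1 and none at 5day. That is close in size to the step of the mid-sized class from 5day to 7day, and shares without it were not computed. The shift was noticed in the data and not tested.

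Among 5day peaks of at least 200 bp and 30 reads in the first library, the second library had at least 1.5 times the density of the first in 71 of 102 peaks marked eliminated and in 37 of 9718 marked retained. The 37 lay on 31 scaffolds, and 13 of them were in the 5day list only. The highest ratio was 2.27, on scaffold 43 from 1831833, and the peak of scaffold 387 named among the falls at 7day had 1.55.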
